A study of Mus with 12 samples.

Results

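The genes described here are the IL-6 and IL-12 family of cytokines, picked by gene symbol from the deposited table: 10 of its 27294 genes. They comprise 8 genes for cytokines or cytokine subunits (Il6, Lif, Osm, Il12a, Il12b, Il23a, Il27 and Ebi3) and 2 genes for receptor chains (Il6ra and Il6st). All 10 were present, and 9 passed the filter on low counts and were tested, while Il23a did not pass. RNA sequencing was done on mouse primary peritoneal macrophages, phagocytes of the abdominal cavity, in 4 groups of n = 3 libraries. The groups were wild type (WT) without treatment, WT with oxidised low-density lipoprotein (oxLDL), knockout (KO) without treatment, and oxLDL-treated KO. The treatment label says oxLDL and the sample titles say LDL. The genotype label gives WT or KO and no gene, while WEE1, a kinase that holds back mitosis, is named in the title of the series. No allele, Cre driver, strain, age, dose or exposure time is given in the labels used here, and nothing states whether replicates came from separate animals, so the p-values measure only the spread between these libraries.

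Each cytokine of this family contains a chain with a helical-bundle fold and signals through receptors that activate JAK kinases and STAT transcription factors. IL-6, leukaemia inhibitory factor (LIF) and oncostatin M (OSM) signal through gp130, the shared receptor chain that Il6st encodes, and IL-6 first binds its own receptor chain, which Il6ra encodes. The IL-12 branch is built from paired subunits: p35 (Il12a) with p40 (Il12b) makes IL-12, p19 (Il23a) with p40 makes IL-23, p28 (Il27) with EBI3 (Ebi3) makes IL-27, and p35 with EBI3 makes IL-35. Macrophages and dendritic cells release several of these cytokines on activation, and NF-κB and interferon regulatory factors are known activators of the Il6 and Il12b genes.

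Gene counts summed to between 53588814 and 76809931 in a library. Levels are FPKM, fragments scaled to transcript length and to library size, which allow comparison between genes, and changes are log2 values fitted to the raw counts with edgeR on the TMM scale. The TMM factors of oxLDL-treated WT libraries were 0.832 to 0.843, and those of all others 1.03 to 1.13, so a fitted change with oxLDL in WT is higher than the log2 ratio of the FPKM means. Wee1 was at 2.80 to 3.25 FPKM in untreated WT, 1.44 to 1.78 in oxLDL-treated WT, 1.22 to 1.63 in untreated KO and 1.25 to 1.60 in oxLDL-treated KO, so it was lower but not absent in KO, and the groups with oxLDL overlapped. All 8 macrophage markers had counts in every group. Their summed FPKM was 21069 to 21466 in untreated WT, 14937 to 15918 in oxLDL-treated WT, 11097 to 11807 in untreated KO and 10661 to 11301 in oxLDL-treated KO, and most of that sum is Lyz2 (18498, 12450.1, 8857 and 8536 FPKM on average in the same order). Gene by gene, 6 of the 8 rose with oxLDL in WT and 2 fell (Csf1r and Lyz2), with Cd14 at 2.43 and Fcgr1 at 2.09 log2, although the FPKM means of Cd68 and Itgam, among the 6, were lower. In KO, 7 of the 8 were lower and Cd68 was higher in both comparisons with WT. Of all genes, 51.2% were called with oxLDL in WT, 31% in untreated KO against WT and 57.9% in KO against WT with oxLDL. The 6 dendritic cell markers, which mark another source of IL-12, summed to 0.496 to 0.798 FPKM in untreated WT, 1.07 to 1.48 in oxLDL-treated WT, 1.01 to 1.07 in untreated KO and 0.824 to 1.12 in oxLDL-treated KO. Its members differed in direction: with oxLDL in WT, Ccr7 rose from 0.254 to 1.13 FPKM on average, Clec9a fell from 0.207 to 0.0257 and Flt3 went to 0 counts, while Cd209a was at 0 counts in untreated WT and at 0.453 FPKM in untreated KO. The part of these shifts in the results was not tested. Fewer cells of a type and less RNA per cell cannot be told apart in such bulk samples.

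Il6 RNA was low in untreated cells of both genotypes and high in WT cells with oxLDL. The Il6 gene (ENSMUSG00000025746, chromosome 5, 30013114 to 30019981, plus strand) had 0.384, 0.204 and 0.321 FPKM in replicates 1, 2 and 3 of untreated WT and 37.8, 39.4 and 43.9 FPKM in oxLDL-treated WT. In untreated KO it had 0, 0 and 0.0501 FPKM, from 0, 0 and 10 counts, and in oxLDL-treated KO it had 0, 0.0966 and 0.171 FPKM, from 0, 19 and 35 counts. The 3 WT libraries with oxLDL stood above all others, the untreated WT libraries came next, and both KO groups lay below them and overlapped each other. Il6 rose by 7.38 ± 0.37 log2 (SE) with oxLDL in WT, and in KO the fitted change of 2.37 ± 1.02 did not pass (edgeR adjusted p = 0.67).

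Lif and Osm, also genes of gp130 ligands, were less responsive than Il6. The Lif gene (ENSMUSG00000034394, chromosome 11, 4257557 to 4272514, plus strand) encodes a cytokine known for keeping embryonic stem cells undifferentiated. It stayed under 0.5 FPKM in every library, at 0.0443, 0.0793 and 0.094 FPKM in untreated WT and 0.324, 0.387 and 0.429 in oxLDL-treated WT. In KO it was at 0.0174, 0.051 and 0.0337 FPKM untreated and 0.0169, 0.04 and 0.053 with oxLDL, levels that overlapped each other and the untreated WT libraries. Its rise in WT was 2.78 ± 0.46 log2.

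Osm (ENSMUSG00000058755, chromosome 11, 4236420 to 4241026, plus strand), the gene of a cytokine that acts on stromal, liver and blood-forming cells, lies 16530 bases from Lif and had a higher level with a smaller range. It was at 2.11, 1.94 and 2.16 FPKM in untreated WT and 3.87, 2.77 and 2.78 in oxLDL-treated WT, where replicate 1 was the high library. In KO, Osm had 2.40, 2.44 and 2.30 FPKM untreated and 2.76, 2.93 and 2.79 with oxLDL. Every KO library with oxLDL was above every untreated KO library, also in counts scaled to library size, where 13.1% of all genes did not overlap. The fitted change of 0.24 ± 0.13 did not pass (edgeR adjusted p = 0.81). The mean of Osm in oxLDL-treated KO was within the range of the WT libraries with oxLDL, unlike the means of the other cytokine subunit genes.

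Both subunits of IL-12 rose in WT from low levels to among the higher levels of the family. Il12a (ENSMUSG00000027776, chromosome 3, 68690644 to 68698547, plus strand) had 0.898, 0.341 and 0.683 FPKM in untreated WT and 47.4, 44.3 and 47.2 in oxLDL-treated WT. Il12b (ENSMUSG00000004296, chromosome 11, 44400063 to 44414033, plus strand) had 1.48, 1.64 and 0.831 FPKM in untreated WT and 68.6, 55.1 and 61.8 with oxLDL. Their fitted rises were 6.50 ± 0.33 and 5.97 ± 0.21 log2. In KO, Il12a had 0, 10 and 0 counts without oxLDL against 9, 5 and 27 with it, and Il12b had 27, 33 and 47 counts without against 21, 22 and 39 with it. The KO groups overlapped for both genes, with fitted changes of 1.97 ± 0.96 for Il12a and -0.40 ± 0.38 for Il12b that did not pass.

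The p19 subunit of IL-23 was close to the limit of detection even where its partner was abundant. Il23a (ENSMUSG00000025383, chromosome 10, 128296139 to 128298752, minus strand) had 16, 4 and 25 counts in oxLDL-treated WT, or 0.09, 0.0238 and 0.138 FPKM, and 0 counts in the other 9 libraries. Against a floor of 3 counts per group, scaled by effective library size, it was at least 20.2-fold higher in oxLDL-treated WT than in untreated WT and at least 20.9-fold higher than in oxLDL-treated KO. These bounds cover counting error only. Il23a was not part of the test. With no filter on low counts, edgeR gave adjusted p = 0.0209 and 0.0177 for those comparisons. The response of KO to oxLDL minus that of WT did not pass in that fit (edgeR adjusted p = 0.9999), with 0 counts in every group but oxLDL-treated WT.

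IL-27 is made of a strongly and a weakly responsive subunit. Il27 (ENSMUSG00000044701, chromosome 7, 126589010 to 126594941, minus strand) was at 4.07, 4.42 and 3.92 FPKM in untreated WT and 43.6, 51.6 and 57.8 in oxLDL-treated WT, a rise of 4.03 ± 0.25 log2. In KO it had 0.556, 0.215 and 0.294 FPKM untreated and 0.39, 0.38 and 1.02 with oxLDL, where replicate 3 was the high library and the groups overlapped. Its span overlaps Apobr on the opposite strand, and the strand setting of the counting is not given in the sources used here.

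Ebi3 (ENSMUSG00000003206, chromosome 17, 55952640 to 55957022, plus strand) was the most abundant of the 8 cytokine genes in both untreated groups and in oxLDL-treated KO. It had 31.8, 33.7 and 38.1 FPKM in untreated WT and 75.2, 45.7 and 44.9 in oxLDL-treated WT, where replicate 1 stood apart. In KO it had 10.7, 10.4 and 8.84 FPKM untreated and 10.4, 12.3 and 14.5 with oxLDL, below every WT library. Its rise with oxLDL in WT was 1.09 ± 0.17 log2, and 0.80 without WT replicate 1 with oxLDL. Ebi3 overlaps the opposite-strand gene Gm16712, and the strand setting bears on its counts in the same way.

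**Figure D1:**
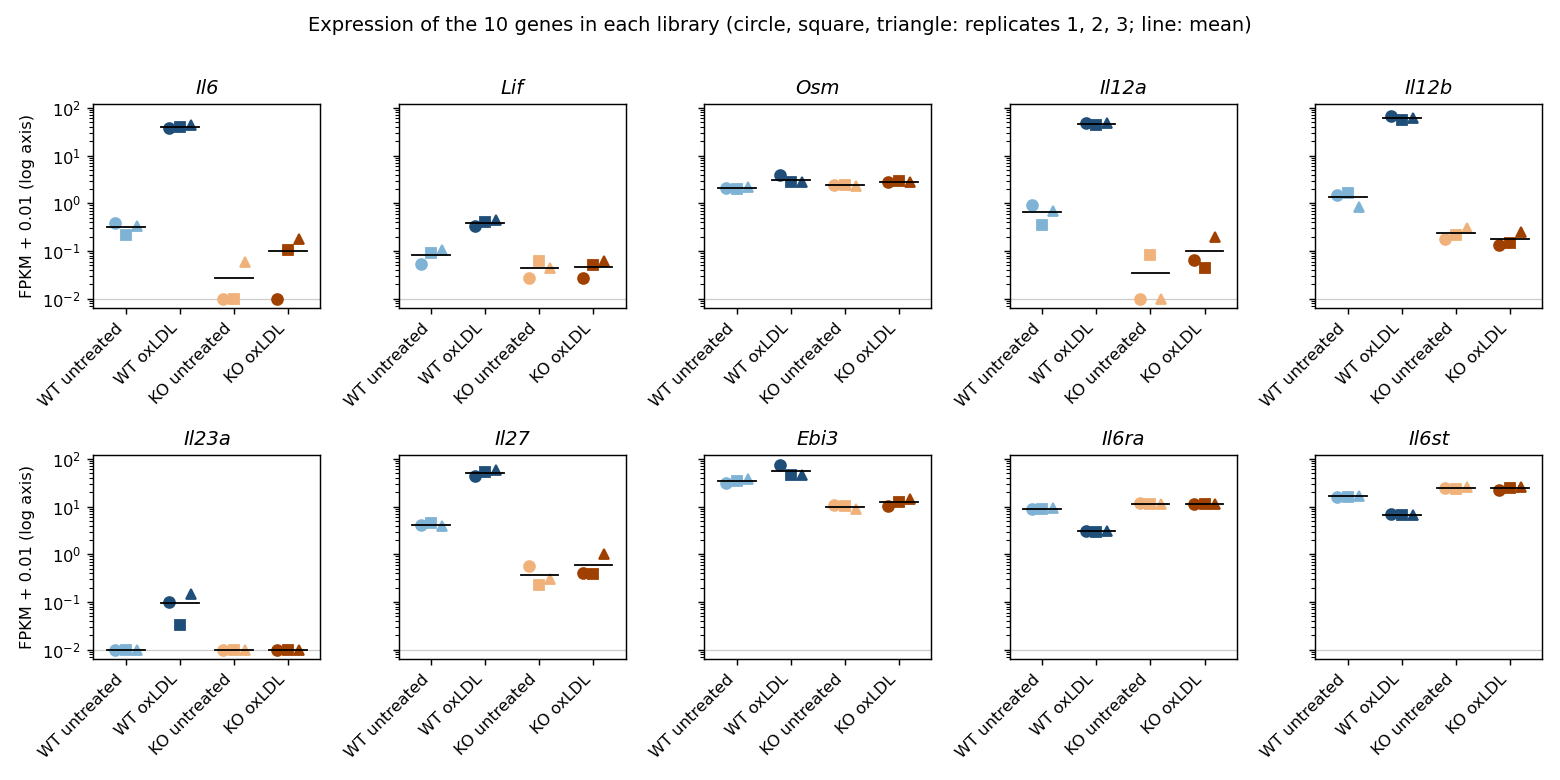
FPKM plus 0.01 on a log axis for each of the 10 genes, with 1 point per library (circle, square and triangle for replicates 1, 2 and 3), a line at each group's mean and a grey line where a library had 0 FPKM. The WT libraries with oxLDL lie far above the rest for Il6, Il12a, Il12b and Il27, between 37.8 and 68.6 FPKM, while Il6ra and Il6st are lowest there.

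The receptor chains moved the other way. Il6ra (ENSMUSG00000027947, chromosome 3, 89864059 to 89913196, minus strand) was at 8.95, 8.85 and 9.32 FPKM in untreated WT and 3.09, 2.93 and 3.04 in oxLDL-treated WT. In KO it was at 11.7, 11.03 and 11.2 FPKM untreated and 11.2, 11.4 and 11.2 with oxLDL. Il6st (ENSMUSG00000021756, chromosome 13, 112464070 to 112510086, plus strand) was at 16.0, 15.8 and 16.8 FPKM in untreated WT, 6.83, 6.74 and 6.54 in oxLDL-treated WT, 24.6, 23.4 and 25.2 in untreated KO and 22.6, 24.7 and 25.9 in oxLDL-treated KO. For both chains every WT library with oxLDL was below every untreated WT library, which in turn was below every KO library, and the KO groups overlapped. With oxLDL in WT, Il6ra fell by 1.17 ± 0.05 log2 and Il6st by 0.87 ± 0.05, and in KO their changes of -0.01 ± 0.04 and 0.00 ± 0.05 did not pass. The ratio of Il6ra to Il6st in FPKM was 0.554 to 0.558 in untreated WT, 0.435 to 0.465 in oxLDL-treated WT, 0.446 to 0.477 in untreated KO and 0.433 to 0.496 in oxLDL-treated KO, so it was higher in untreated WT than in any other library.

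The balance of partner subunits differed between groups. In oxLDL-treated WT, Il12a was at 0.691, 0.805 and 0.764 of the Il12b level in replicates 1, 2 and 3, so the IL-12 subunits were within the same order of magnitude. In untreated WT that ratio was 0.606, 0.208 and 0.823, a wider spread at lower counts. Il23a reached 0.000431 to 0.00224 of the Il12b level in oxLDL-treated WT, so Il12b exceeded Il23a by 446.6 to 2318 times.

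For IL-27 the ratio of Il27 to Ebi3 was 0.128, 0.131 and 0.103 in untreated WT and 0.58, 1.13 and 1.29 in oxLDL-treated WT. In KO it was 0.0522, 0.0206 and 0.0333 untreated and 0.0373, 0.031 and 0.07 with oxLDL. Thus Ebi3 exceeded Il27 in all 9 libraries outside oxLDL-treated WT and in replicate 1 of that group, while Il27 exceeded Ebi3 in its replicates 2 and 3. Ebi3 exceeded Il12a, its partner in IL-35, in every library except replicate 3 of oxLDL-treated WT, where the ratio of Il12a to Ebi3 was 1.05.

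**Figure D2:**
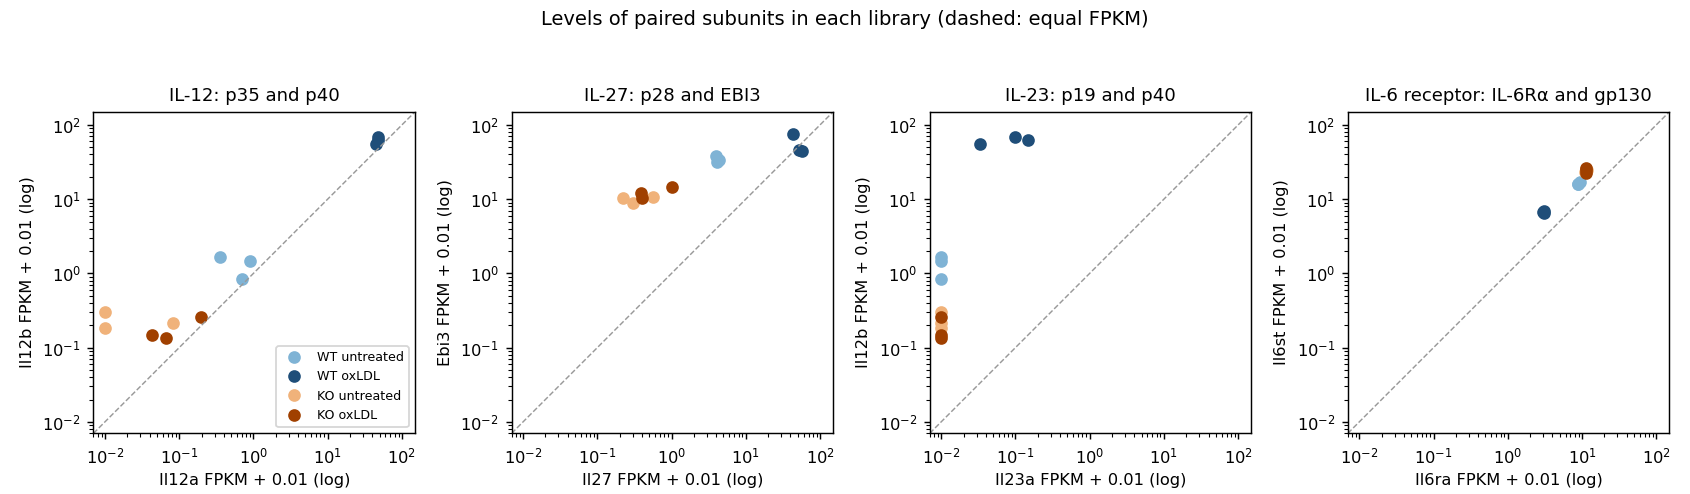
Levels of partner genes in each of the 12 libraries, as FPKM plus 0.01 on log axes, coloured by group, with a dashed line where both are equal. The IL-12 pair lies near the line in oxLDL-treated WT (ratios 0.691 to 0.805), the IL-27 pair reaches it in that group alone among the 4, and Il23a stays at or below 0.138 FPKM.

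Summed over the 8 cytokine genes, FPKM was 40.8, 42.3 and 46.2 in untreated WT, 276.9, 239.4 and 258.9 in oxLDL-treated WT, 13.8, 13.4 and 11.8 in untreated KO and 13.8, 15.9 and 18.97 in oxLDL-treated KO. The WT groups stood apart from each other and from both KO groups, which overlapped. Ebi3 made up 78.0 to 82.6% of that sum in untreated WT, 74.8 to 77.8% in untreated KO and 75.7 to 77.2% in oxLDL-treated KO, but 17.4 to 27.2% in oxLDL-treated WT, where Il12b, Il27, Il12a and Il6 took most of the remainder.

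**Figure D3:**
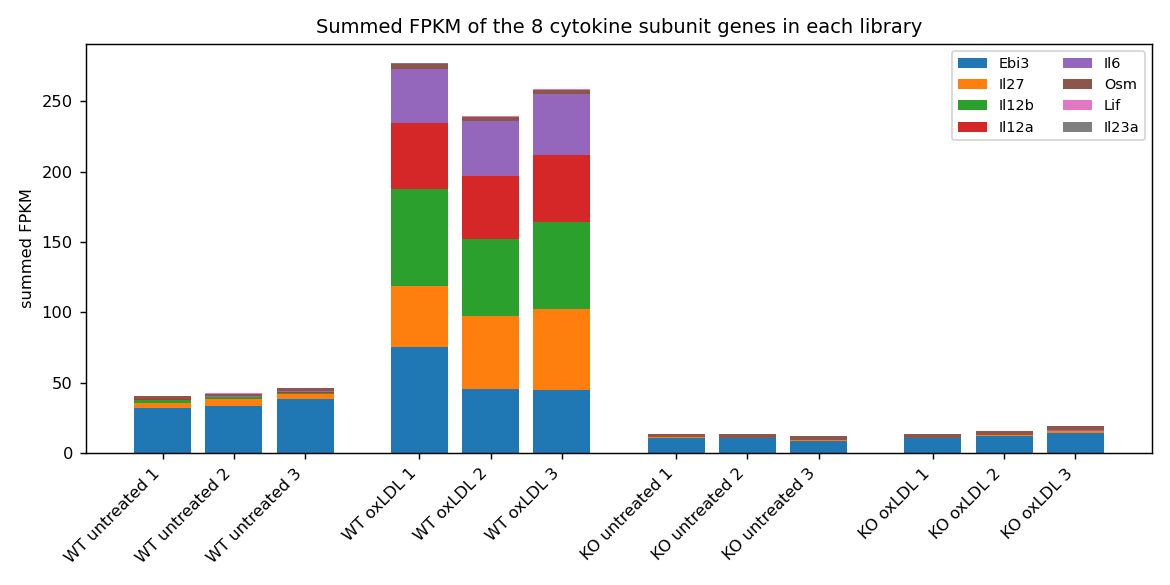
Stacked bars of the FPKM of the 8 cytokine genes in each library, on a linear axis from 0. The bars of oxLDL-treated WT reach 239.4 to 276.9 FPKM in 5 main genes, and the bars of the other groups reach at most 46.2 FPKM and are mostly Ebi3.

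The first comparison asked how oxLDL changed the family in WT macrophages. Of the 9 genes tested, 7 rose (Il6, Il12a, Il12b, Il27, Lif, Ebi3 and Osm) and 2 fell (Il6ra and Il6st) in edgeR's quasi-likelihood test, with p-values adjusted by Benjamini-Hochberg over all genes. The libraries of the groups did not overlap in CPM (counts scaled to library size) for any of the 9, and they did not for 66.6% of all genes. Over all 17291 genes tested, 51.2% passed, 23.9% upward and 27.2% downward. The median change of the 9 genes was 2.78 log2, against -0.06 over all genes. Il6 had the largest fitted rise (edgeR adjusted p = 3.32e-10), followed by Il12a (3.69e-10), Il12b (8.57e-12), Il27 (4.14e-09) and Lif (0.000135). All 9 also passed under each of the 22 other settings. The rises of Ebi3 (edgeR adjusted p = 8.93e-05) and Osm (1.01 ± 0.14, 1.90e-05) were the smallest of the 7 and depended in size on the scaling: with library totals alone Ebi3 rose by 0.68. For Osm the lowest value over the 22 other settings was 0.42, with limma on log2(FPKM + 1), and it still passed.

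The second comparison asked the same of KO macrophages, and 0 of the 9 genes passed edgeR's test, against 0.0116% of all genes. At an unadjusted p under 0.05 there was 1 gene, Il6, against 1211 of all 17291 genes. Its counts were 0, 0 and 10 without and 0, 19 and 35 with oxLDL. None of the 9 passed with DESeq2, with limma on FPKM or under the other settings tried. The fitted changes ran from -0.40 for Il12b to 2.37 for Il6, with a median of 0.24, against -0.00 over all genes. Changes of Il6 and Il12a in KO rest on 10 counts in 1 untreated library each, so their size is poorly fixed. Leaving out 1 library at a time moved them from 1.45 to 7.05 and from 1.02 to 6.65. The upper end of both ranges leaves untreated KO at 0 counts and is not a size. For Ebi3, the KO gene with the highest cytokine level, the change was 0.31 ± 0.18, and for Il27 it was 0.74 ± 0.39, which ran from 0.12 without KO replicate 3 with oxLDL to 1.21 without untreated KO replicate 1.

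The third comparison asked how KO differed from WT without treatment. Of the 9 genes, 5 cytokine genes were lower in KO and both receptor chains were higher, against 31% of all genes called (16.2% lower and 14.8% higher). Il12a (-4.61 ± 0.66) and Il6 (-4.05 ± 0.80) had the largest differences, then Il27 (-3.41 ± 0.32), Il12b (-2.40 ± 0.28) and Ebi3 (-1.69 ± 0.18), with edgeR adjusted p between 8.20e-07 and 0.00116. The size for Il6 and Il12a again rests on single libraries. The fit gave -8.73 without untreated KO replicate 3 and -9.29 without untreated KO replicate 2, the libraries that held their 10 counts. Either omission leaves untreated KO at 0 counts for that gene, so these values are not sizes. Il6st was higher in KO by 0.69 ± 0.05 (edgeR adjusted p = 4.22e-08) and Il6ra by 0.43 ± 0.04 (1.94e-06). Lif (-0.97 ± 0.48, edgeR adjusted p = 0.157) and Osm (0.31 ± 0.14, 0.109) did not pass. The median of the 9 was -1.69, against -0.01 over all genes.

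With oxLDL, 7 of the 9 genes were lower in KO than in WT and both receptor chains were higher, against 57.9% of all genes called (27.4% lower and 30.6% higher). Il12a (-9.14 ± 0.40), Il6 (-9.06 ± 0.42) and Il12b (-8.77 ± 0.26) had fitted folds of 564.4, 534.7 and 437.9. Il27 was 104.1-fold lower in KO (-6.70 ± 0.30), Lif 12.2-fold (-3.61 ± 0.48) and Ebi3 5.50-fold (-2.46 ± 0.18). Without KO replicate 3 with oxLDL, the library with most of their KO counts, the differences were -10.09 for Il12a, -9.98 for Il6 and -7.33 for Il27. Il6ra was higher in KO by 1.60 ± 0.05 and Il6st by 1.56 ± 0.05. The difference of Osm was small (-0.46 ± 0.13, edgeR adjusted p = 0.00892), and it was lost when replicate 1 of oxLDL-treated WT was left out (-0.29), with library totals alone (-0.15), and in limma on log2(FPKM + 1) (-0.10) or log2(FPKM + 0.1) (-0.13). Its libraries overlapped; those of the other 8 genes did not, and 66.9% of all genes had no overlap.

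The interaction (response of KO to oxLDL minus response of WT) passed for all 9 genes in edgeR's test, negative for the 7 cytokine genes and positive for Il6ra and Il6st, against 41.7% of all genes (19.6% negative and 22.1% positive). It was -6.37 ± 0.46 for Il12b, -3.29 ± 0.48 for Il27 and -2.65 ± 0.67 for Lif, and 1.16 ± 0.06 for Il6ra and 0.87 ± 0.07 for Il6st. For Il6 (-5.02 ± 1.76, edgeR adjusted p = 0.0335) and Il12a (-4.53 ± 1.51, 0.0265) it depended on 1 library. It was -0.33 without untreated KO replicate 3 for Il6 and 0.16 without untreated KO replicate 2 for Il12a, neither of which passed. Either omission leaves untreated KO at 0 counts for that gene, so -0.33 and 0.16 are not sizes. For Ebi3 (-0.77 ± 0.25, edgeR adjusted p = 0.021) and Osm (-0.76 ± 0.19, 0.00468) it did not pass with library totals alone (-0.36 and -0.35), and for Ebi3 it was -0.49 without WT replicate 1 with oxLDL. It passed under 14 of 21 other settings for Ebi3 and 18 of 21 for Osm. The comparisons share libraries, since each group enters 2 pairwise comparisons and the interaction.

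**Figure D4:**
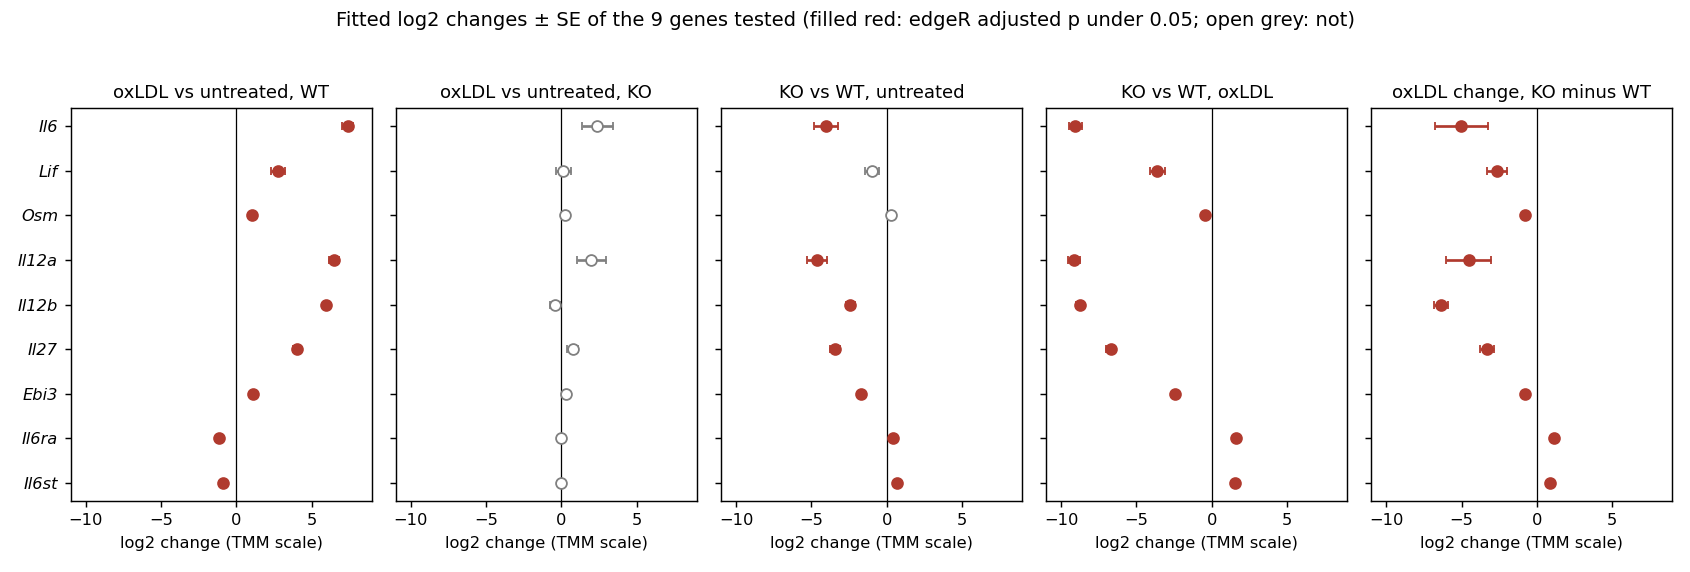
Fitted log2 changes with their standard errors for the 9 genes tested, in 5 panels for the 4 pairwise comparisons and the interaction; filled red points passed and open grey points did not. Cytokine genes are to the right and receptor chains to the left of 0 with oxLDL in WT, no gene passes with oxLDL in KO, and the signs are reversed in KO against WT with oxLDL.

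Genes that act with the family were read from 4 lists. The first held 16 other ligands and receptor chains of the family, of which 14 were in the table and 9 were tested. With oxLDL in WT 4 rose and 1 fell, with a median of 0.19, a share near the 51.2% of all genes that passed. Il23r, the receptor chain for IL-23, rose by 2.92 ± 0.29, from 0.78 ± 0.071 to 4.44 ± 0.43 FPKM (SD, n = 3), and Clcf1, a gp130 ligand, by 2.06 ± 0.29. Il12rb2, the signalling chain of the IL-12 receptor, fell by 0.79 ± 0.11. In KO 0 of the 9 passed with oxLDL in edgeR's test, against 0.0116% of all genes, and DESeq2 called 0. An unadjusted p under 0.05 was seen for 2, against 1211 of all 17291 genes. Il23r in KO had 0 counts untreated and 12 with oxLDL against 417 and 2365 in WT, which made it at least 141.4-fold lower in KO without treatment, and -8.05 ± 0.42 with oxLDL (-8.99 without KO replicate 2, which held 8 of the 12 counts). Il12rb1, the chain that the IL-12 and IL-23 receptors share, was lower in KO, at -4.88 ± 0.30 log2 untreated and -6.26 ± 0.31 with oxLDL, while Il12rb2 (0.66 and 1.48) and Il11ra1 (0.88 and 0.97), the IL-11 receptor gene, were higher. In untreated KO 2 of the 9 were higher and 3 lower, with a median of -0.23, against 31% of all genes called. With oxLDL 3 were higher and 4 lower, with a median of -0.61, against 57.9%. For each list below too, the medians are the same with genes at 0 counts set to their bound.

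Lymphocytes also express Il23r and Il12rb1. The 6 T and NK cell markers summed to 0.731 to 1.24 FPKM in untreated WT, 0.708 to 1.14 in oxLDL-treated WT, 0 to 0.147 in untreated KO and 0.044 to 0.0605 in oxLDL-treated KO. Most of the WT sum was Ncr1, an NK cell receptor gene, at 0.761 FPKM on average in untreated WT and 0.725 with oxLDL. Cd3d and Klrb1c had too few counts to be tested, and Klrb1c had 24 and 26 counts in the KO groups against 12 and 8 in WT. Of the 6, Cd3e and Ncr1 were at 0 counts in both KO groups and Cd3g and Cd8a at 0 in oxLDL-treated KO. The part of such cells in the difference was not tested. The summed markers of mast cells were also lower in KO, at 0.996 to 1.62 FPKM against 3.05 to 6.10 in WT. Those of mesothelial cells and fibroblasts, another source of IL-6, summed to 4.95 to 5.91 FPKM in KO and 7.49 to 8.65 in WT. Of these 6, the fibroblast genes Col1a1 and Dcn were lower in KO in both comparisons. The other 4, mesothelial Msln, Upk3b and Krt19 among them, did not pass in either, against 31% and 57.9% of all genes called. The 4 neutrophil markers in the table summed to 1.32 to 1.68 FPKM in KO and 2.82 to 4.10 in WT, nearly all of it S100a8, the only one of them with enough counts to be tested. The 5 B cell markers summed to 1.69 to 2.53 FPKM in KO and 0.91 to 1.74 in WT. In untreated KO against WT 0 of these 5 passed. With oxLDL 1 was higher in KO and 1 lower, against 57.9% of all genes called. Their members differed in direction: with oxLDL, Cd79b was at 1.02 FPKM on average in KO and 0.234 in WT, and Pax5 at 0.0471 and 0.15. Between untreated WT and oxLDL-treated WT, the sums of T and NK cell, B cell, neutrophil, and mesothelial and fibroblast markers overlapped. Those of mast cell markers did not, at 5.17 to 6.10 FPKM untreated and 3.05 to 3.72 with oxLDL. Among mast cell markers Kit alone passed, falling by 0.69 ± 0.22. Dcn alone of the mesothelial and fibroblast list passed, rising by 0.76 ± 0.11. Of the 5 B cell markers Pax5 alone passed, rising by 1.83 ± 0.46. S100a8 also passed, rising by 0.58 ± 0.21, and no T and NK cell marker did. Over all genes 51.2% passed in that comparison.

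The second list held 13 genes of the JAK-STAT cascade below the receptors, its brakes, and the proteases that shed IL-6 receptor chains. In oxLDL-treated WT 11 rose and 2 fell, with a median of 0.91, against 51.2% of all genes called. Socs3, the brake on gp130 signalling, rose by 3.98 ± 0.07, from 12.4 ± 0.84 to 146.9 ± 6.5 FPKM, and Socs1, a brake on JAK kinases, by 3.09 ± 0.28. Pias3, an inhibitor of STAT3, fell by 0.66 ± 0.10 and Adam10, a sheddase, by 0.63 ± 0.04. In KO 0 of the 13 passed with oxLDL in edgeR's test, against 0.0116% of all genes. An unadjusted p under 0.05 was seen for 3, against 1211 of all 17291 genes. DESeq2 called 1 of the 13, against 97 of all genes: Socs1, with 0 counts untreated and 22 with oxLDL. Socs1 also passed without WT replicate 1 with oxLDL and without KO replicate 2 with oxLDL. KO was lower in 9 and higher in 1 untreated (31% of all genes called), and lower in 11 and higher in 2 with oxLDL (57.9%), with medians of -0.44 and -1.29. In untreated KO, Socs1 was at least 48.5-fold lower, and Adam10 was higher by 0.21, a difference that was lost under 3 other settings (0.10 with library totals). With oxLDL, Socs3 (-5.90 ± 0.08) and Socs1 (-5.81 ± 0.34) were lower in KO, and Adam10 (0.80) and Pias3 (0.60) were higher.

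Of 12 STAT3 target genes 11 rose and 0 fell with oxLDL in WT, with a median of 1.32, against 23.9% and 27.2% of all genes. Il10, an anti-inflammatory cytokine, rose by 4.35 ± 1.01, from 34, 0 and 18 counts to 240, 204 and 300, which did not pass with DESeq2 (adjusted p = 0.114). Its rise was 3.82 without untreated WT replicate 2 and 5.22 without untreated WT replicate 1. Junb, an AP-1 subunit, rose by 2.09 ± 0.51. Junb rested in size on WT replicate 1 with oxLDL, without which it rose by 1.09, and in Bcl3, an NF-κB cofactor, that library had 4913 counts against 1649 and 2658 in replicates 2 and 3. In KO 0 of the 12 passed with oxLDL, against 0.0116% of all genes, and DESeq2 called 0. An unadjusted p under 0.05 was seen for 5, against 1211 of all 17291 genes. Bcl3 (0.82) passed without WT replicate 1 with oxLDL, which enters that fit through the shared spread. Untreated KO was lower in 7 and higher in 1 (Myc, 0.52), with a median of -0.72, against 31% of all genes called, and the total of 8 fell to 5 without untreated KO replicate 1. Myc lost its call under 10 of the 22 other settings (0.29 to 0.53), and its groups overlapped. Saa3, an acute phase protein gene, was lower in KO (-5.95 ± 0.12), at 11.6 ± 1.8 against 769.2 ± 29 FPKM, as was Bcl3 (-1.95 ± 0.24). With oxLDL 11 were lower in KO and 0 higher (27.4% and 30.6% of all genes), with a median of -2.02, led by Saa3 (-6.87 ± 0.12) and Il10 (-5.67 ± 1.11). The 20 counts of Il10 in oxLDL-treated KO were all in replicate 1, so its size is poorly fixed. Without that library the group is at 0 counts, and the fitted -11.30 is not a size.

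The last list held 13 regulators of Il6 and Il12b transcription or mRNA decay, and all 13 rose with oxLDL in WT, with a median of 1.34, against 23.9% of all genes. Nfkbiz, which encodes the NF-κB cofactor IκBζ needed for induction of Il6 and Il12b, rose by 3.65 ± 0.08, and Zc3h12a, which encodes the RNase Regnase-1 that degrades Il6 and Il12b mRNA, by 3.10 ± 0.07. In KO 0 of the 13 passed in edgeR's test, against 0.0116% of all genes, and DESeq2 called 0, with a median of 0.06. An unadjusted p under 0.05 was seen for 5, against 1211 of all 17291 genes. Untreated KO was lower in 7 and higher in 3, against 31% of all genes called, with a median of -0.21: Irf1, a transcription factor that acts on Il12a and Il12b, was at -3.56 ± 0.07 and Cebpb, an activator of Il6, at -1.83 ± 0.29, while Atf3, a repressor of Il6 and Il12b, was at 0.82 ± 0.04 and Rel at 0.30 ± 0.05. With oxLDL 12 were lower in KO and 0 higher (27.4% and 30.6% of all genes), with a median of -1.72, led by Nfkbiz (-5.17 ± 0.09) and Irf1 (-5.05 ± 0.08). The interaction was negative for 12 of these 13, for 9 of the 13 JAK-STAT genes (2 positive), for 8 of the 12 STAT3 targets and for 3 of the 9 other ligands and receptors (1 positive). Over all genes 19.6% were negative and 22.1% positive, 41.7% in all, and the share of the other ligands and receptors is near that.

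**Figure D5:**
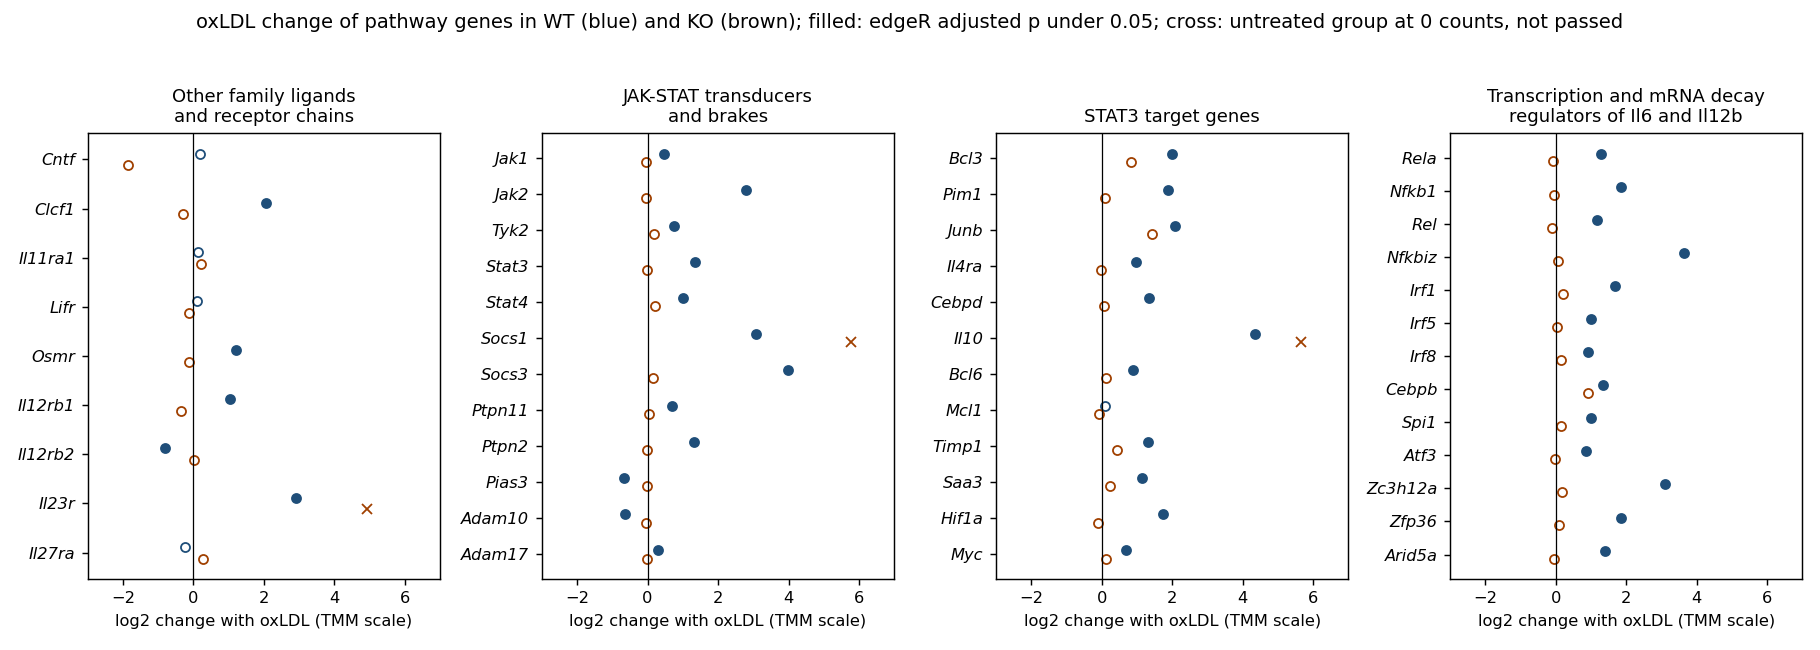
Fitted log2 changes with oxLDL in WT (blue) and KO (brown) for tested genes of the 4 lists, all but 1 of which are drawn; filled circles passed, open circles did not, and a cross marks a KO change against a group at 0 counts. Blue points lie mostly right of 0 and no brown point is filled; Socs3 is at 3.98 in WT and 0.17 in KO.

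By Pearson correlation of log2 CPM (TMM scale) over the 12 libraries, among 14416 genes, the genes most like Il6 were Gm20100 (r = 0.983), Lrrc58 (0.983) and Mir155hg (0.982), the host gene of a microRNA induced in activated macrophages. Mir155hg had 42.7 FPKM in oxLDL-treated WT and 0.77 in untreated WT. The FPKM means of Lrrc58 were 11.3 in untreated WT, 10.1 in oxLDL-treated WT, 9.77 in untreated KO and 9.98 in oxLDL-treated KO, so its likeness to Il6 holds on the TMM scale and not in FPKM. Those most like Il12b were Xkr8 (0.997), a phospholipid scramblase gene, Usp53 (0.997) and Fmnl2 (0.996), a formin. Those most like Il6ra were Acox3 (0.999), an enzyme of peroxisomal fatty acid oxidation, Galc (0.999), a lysosomal enzyme, and Cd300lb (0.999), an activating receptor gene. Within the family r was 0.98 between Il6ra and Il6st and -0.995 between Il12b and Il6ra, and it was 0.453 to 0.632 between Osm and the other cytokine genes tested. The libraries fall into separate groups, so such values describe mainly the order of the groups.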

How the data were processed

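The authors deposited 1 table with raw read counts per gene and FPKM values for 12 libraries, per the file headers. Poly(A) RNA was sequenced in pairs, per the labels' protocols, whose text speaks of an adipose type although the source label is macrophages. HISAT2 2.0, Bowtie 0.12.2 and build mm8 are named, per the submitters' processing notes; yet 99.9% of 21990 genes matched by Entrez identifier overlapped their GRCm38.p6 position in RefSeq, so the coordinates printed are the table's own, read as GRCm38. Which counting tool, annotation and strand setting were used is not stated there.

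Counts were tested in R 4.3.3 with edgeR 4.0.16 (quasi-likelihood, TMM, filterByExpr, 17291 genes kept), the 4 groups fitted together without a block. A gene was called at an adjusted p under 0.05 (Benjamini-Hochberg over all genes tested). An SE is the absolute log2 change divided by the square root of the F statistic. FPKM is given per library or as mean ± SD. The edgeR fit was also run on simulated counts with known changes, for the genes kept by the filter. Other steps were not simulated, and the outcome is not given here. With 3 libraries against 3, the smallest two-sided p of an exact permutation test is 0.1, so no such test was run. Alternatives were edgeR with other scalings, filters, samples and a block, DESeq2 1.42.0, limma 3.58.1 on log2(FPKM + 1) or log2(FPKM + 0.1), and each library left out.

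The family's members and the lists were chosen with earlier results of these data known. All 10 members are named. From each pathway list and comparison, up to 2 called genes with the largest rise and 2 with the largest fall are named, with a mean of at least 20 counts in the higher group; 1 gene of the JAK-STAT list is counted but not reported here by name or drawn. Likeness used the 3 highest correlations for Il6, Il12b and Il6ra. A group at 0 counts was set to a floor of 3 counts over the group. Replicate numbers gave no sign of pairing: deviations from the group means of same-numbered libraries correlated at -0.0449 to 0.031 over 18 pairs. For differently numbered libraries the values were -0.0465 to 0.0632 over 36 pairs. Such values cannot show that same-numbered libraries shared no animal or day. No pair of libraries held identical counts.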

Additional observations from a re-analysis of the deposited data

Results flagged for a closer look

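The oxLDL change differed between genotypes, by edgeR's interaction test over all genes, for all 9 family genes tested and for 11 named genes of the pathway lists. The log2 response of KO minus that of WT was -5.02 for Il6, -4.53 for Il12a, -6.37 for Il12b, -3.29 for Il27, -0.77 for Ebi3, -2.65 for Lif and -0.76 for Osm, and 1.16 for Il6ra and 0.87 for Il6st. Of the 21 other settings, 2 lost the call for Il6, 2 for Il12a, 7 for Ebi3 and 3 for Osm. Among ligands and receptor chains it was -2.35 for Clcf1, -1.38 for Il12rb1, which lost its call under 6 of the other settings, and 0.82 for Il12rb2. In the JAK-STAT list it was -2.83 for Jak2, a JAK kinase gene, -3.81 for Socs3, 0.66 for Pias3 and 0.59 for Adam10. Among STAT3 targets it was -1.81 for Pim1, a survival kinase, and -1.85 for Hif1a, the hypoxia-inducible factor. Among regulators it was -3.59 for Nfkbiz and -2.93 for Zc3h12a. For each gene with a negative value here the change in WT was a rise that passed, and no gene passed in KO.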

How the results depend on the processing

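Each result was recomputed under 22 other settings (21 for the interaction, which has no fit on the libraries of 1 contrast). Every family gene called for oxLDL in WT kept its direction and call under all 22, and none was called for oxLDL in KO under any. Of 980 family values, 961 kept their call. The exceptions were confined to Il6, Il12a, Ebi3 and Osm: the interaction of Il12a ranged from -5.48 to 0.16 with 1 library left out, 0.16 being without untreated KO replicate 2, which leaves that group at 0 counts, and 17 other values no longer passed. Among other named genes, 20 of 1045 values lost the call: 10 for Myc and 3 for Adam10 in untreated KO against WT, 6 for the interaction of Il12rb1 and 1 for Il10 with oxLDL in WT. Osm was higher in untreated KO (0.46) with quantile normalization.

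Counts of family genes called with 1 library left out were 9 to 10 (WT, oxLDL), 0 to 0 (KO, oxLDL), 7 to 7 (untreated KO against WT), 8 to 10 (KO against WT with oxLDL) and 8 to 9 (interaction); the tenth is Il23a, which then enters the test. On the same basis, JAK-STAT genes called with oxLDL in KO were 0 to 1, STAT3 targets 0 to 1, and STAT3 targets in untreated KO 5 to 9. DESeq2 called 1 JAK-STAT gene with oxLDL in KO, and limma on log2(FPKM + 1) called 7 other ligands and receptors for the interaction against 4. With the replicate block, family genes called were 9, 0, 7, 9 and 9 in the order above. With library totals alone, the median of all genes moved from -0.06 to -0.46 with oxLDL in WT, and the share of called genes that rose from 46.8% to 21.1%. Low counts limit Il23a, and Il6 and Il12a in KO.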
